A study of Homo sapiens with 20 samples.

Results

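CEACAM1, ITGA6, CD46, CD47 and F11R encode 5 receptors of the cell surface, and the deposited tables of skipped exons and of FUBP1 binding were searched for every entry under these 5 gene symbols. The search found 46 of 59847 skipped exon events, 15 of 19792 after FUBP1 depletion, 22 of 32990 after U3 depletion and 9 of 7065 after FBL depletion, at 22 distinct exons. CD46 had 19 of the events, CEACAM1 12, ITGA6 9, CD47 4 and F11R 2. All 5 genes were among the 28278 genes of the binding table. The genes were selected on values of these same tables, with earlier results in view. Their inclusion levels, read levels and enrichments are therefore given as a description. Counts of called events, and the intervals given for enrichment, are to be read in the same way, as no independent test of these genes.

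All 20 samples, in 8 groups, were HepG2, a line derived from a human liver cancer. Polyadenylated RNA was sequenced 48 h after an siRNA against FUBP1 (siFUBP1, n = 3) or a control siRNA (siCtrl2, n = 3), and 72 h after an antisense oligonucleotide against the U3 small nucleolar RNA (U3 ASO, n = 3) or against GFP (GFP ASO, n = 3). FUBP1 is a splicing factor that binds RNA, and U3 belongs to the C/D box RNAs that associate with FBL, the methyltransferase that places 2′-O-methyl groups on RNA. FUBP1 RNA immunoprecipitation (RIP) and its input were sequenced 48 h after an siRNA against FBL (siFBL) or a control siRNA (siCtrl). There were 2 libraries in each of the 4 groups, and the input libraries served for splicing. For the RIP and input libraries the paper describes no selection of polyadenylated RNA. The depletions were transient and in 1 cell line, and the 3 experiments each had their own control.

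Libraries held 910779 to 1142189 junction reads in the input table, 2693397 to 4474350 in the siFUBP1 table and 11249641 to 13321799 in the U3 table, so the values after FBL depletion rest on the fewest reads. FUBP1 junction reads in siFUBP1 were 14.9% of the siCtrl2 level, and the authors' mean normalized count of FBL was 1034 in the siCtrl RIP fit and 164 in the siFBL fit. FUBP1 junction reads were also lower under U3 ASO, at 72.4% of GFP ASO. The authors' mean normalized count of FUBP1 was 14257 in the siCtrl RIP fit and 8689 in the siFBL fit, on scales that the fits do not share. Whether this bears on the RIP enrichments was not tested. All 8 hepatocyte markers examined, among them ALB and APOA1, had mean normalized counts of 3544 or more in siCtrl, while 6 markers of leukocytes, endothelium and fibroblasts had 3.57 to 92.8.

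Each of these receptors is made in forms that differ by whole exons, and the exons often code for the part of the protein inside the cell. CEACAM1 is a homophilic adhesion molecule of epithelia, abundant on the bile canalicular face of hepatocytes, and comes with a long tail that carries inhibitory tyrosine motifs or with a short tail that lacks them. ITGA6 is the alpha-6 integrin chain, a laminin receptor with the alternative tails A and B. CD46 is a complement regulator with the alternative tails CYT-1 and CYT-2 and a stem of variable length rich in serine, threonine and proline, CD47 is the ligand of SIRPA that restrains phagocytosis, and F11R (JAM-A) is an adhesion molecule of tight junctions.

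The exons that set these tails, and the alternative pair of the CD46 stem, are printed below from the hg38 genome so that their length, stop codons and splice acceptors can be read beside the values. Lower case marks the 40 intron bases before the exon and, where shown, the first 20 after it, and capitals mark the exon. The 2 exons that end a reading frame are shown only up to their stop codon, which is the last triplet.
CEACAM1 exon 7: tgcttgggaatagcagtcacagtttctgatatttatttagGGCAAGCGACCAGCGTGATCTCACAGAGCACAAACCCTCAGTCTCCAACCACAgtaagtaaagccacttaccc
ITGA6 exon 25: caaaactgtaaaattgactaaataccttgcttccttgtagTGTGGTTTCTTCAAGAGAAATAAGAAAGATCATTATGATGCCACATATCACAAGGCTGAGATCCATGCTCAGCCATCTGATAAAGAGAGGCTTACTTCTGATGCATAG
CD46 exon 13: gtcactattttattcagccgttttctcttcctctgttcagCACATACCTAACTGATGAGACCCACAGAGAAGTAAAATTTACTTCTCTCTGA
CD46 exon 7: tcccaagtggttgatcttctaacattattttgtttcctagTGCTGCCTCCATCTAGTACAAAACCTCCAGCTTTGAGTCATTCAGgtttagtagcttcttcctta
CD46 exon 8: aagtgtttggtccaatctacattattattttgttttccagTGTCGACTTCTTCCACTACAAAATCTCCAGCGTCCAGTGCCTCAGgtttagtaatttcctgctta

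CEACAM1 exon 7 lies at chr19:42511576-42511628 on the minus strand and has 53 bases, so skipping it shifts the reading frame. In the annotation (GENCODE release 44) the transcript CEACAM1-201, which includes it, codes for 526 residues with 202 coding bases after exon 6, and CEACAM1-207, which skips it, codes for 464 residues with 16 coding bases after exon 6. ITGA6 exon 25, at chr2:172501772-172501901 on the plus strand, has 130 bases and holds its own TAG stop, after 105 coding bases that form tail A. Where it is skipped, 159 coding bases of the next exon follow and form tail B, as in ITGA6-202 with 1091 residues against 1073 in ITGA6-212. CD46 exon 13, at chr1:207790253-207790345 on the plus strand, has 93 bases and ends the CYT-1 frame with TGA after 49 coding bases, whereas the CYT-2 frame runs for 70 bases in the next exon. CD46 exons 7 (chr1:207767607-207767651) and 8 (chr1:207767779-207767823) have 45 bases each and code for stretches of the stem. They had the same base at 31 of their 45 positions and at 22 of the 40 positions before them.

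Among 29248 exons with enough reads, 98.6% had AG before and GT after them, as all exons printed here did, and 41.8% had a length divisible by 3. The motif TTTT occurred in the 100 bases before CD46 exons 7, 8 and 13, and did not occur there before CEACAM1 exon 7 or ITGA6 exon 25. It was found before 67.0% of all 29248 exons, searched on the sense strand only. TGTGT, found before 19.6%, occurred before none of these 5 exons. CEACAM1 exon 7 and ITGA6 exon 25 had the same share of pyrimidines in the last 40 intron bases, 52.5%, which was above that of 11.1% of the exons.

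Of the 46 events, 41 passed the minimum, an average of 10 junction reads in a library, and were tested, 14 after FUBP1 depletion, 18 after U3 depletion and 9 after FBL depletion. The inclusion level is the share, from 0 to 1 and corrected for length, of junction reads that include the exon, and a change is the depleted group minus its control. An event was called at an adjusted p under 0.1 in a quasi-binomial test of inclusion against skipping reads, adjusted over all events of a table. After FUBP1 depletion 1 of the 14 events was called (CEACAM1 exon 7), against 0.154% of all 16213 events tested. After U3 depletion 0 of 18 were called, against 0.183% of 30110, and after FBL depletion 0 of 9, against 0.0% of 5218. At an unadjusted p under 0.05 the same test listed 3, 1 and 1 of these events. Over all events it listed 532 of 16213, 880 of 30110 and 48 of 5218. Since the genes were selected on these tables, nothing is read from the counts of calls or from their distance to the shares over all events. The levels of depleted and control libraries did not overlap at 3 of 13 events with reads in every library after FUBP1 depletion (5.16% of all events), at 1 of 17 after U3 depletion (6.18%) and at 2 of 9 after FBL depletion (14.4%). The median change over the members was -0.00707, -0.00835 and -0.0692 in the 3 tables, and over all events -0.00139, -0.00355 and -0.00326.

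**Figure D1:**
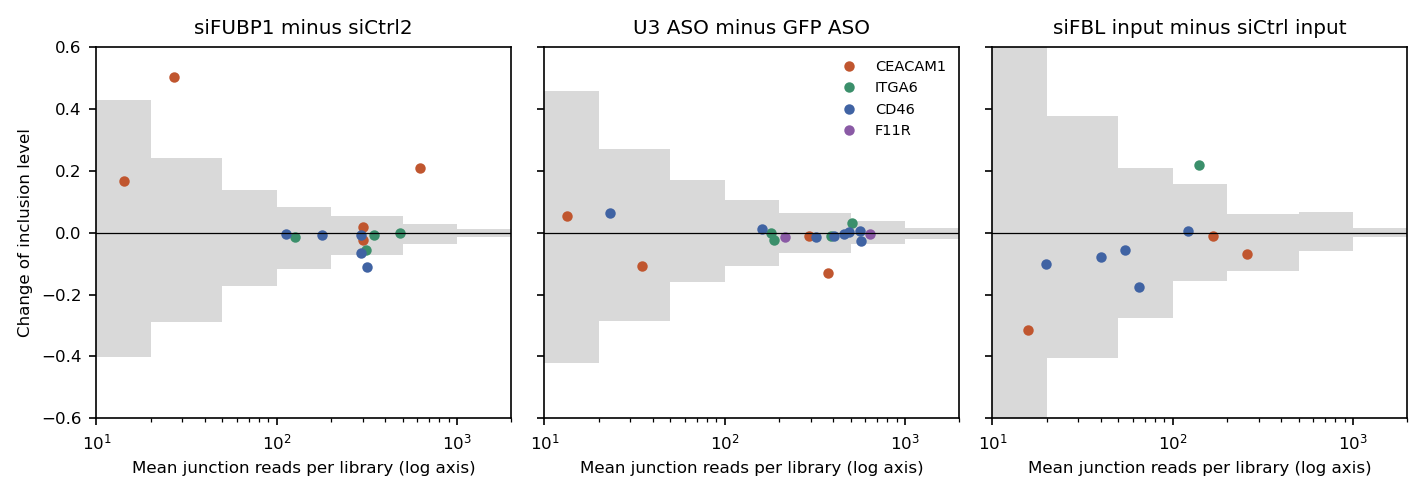
Change of inclusion level (depleted minus control) against mean junction reads per library (log axis) for the 41 tested events, one point an event, coloured by gene. Grey bands hold the central 95% of all tested events at that read depth, whatever their inclusion level. Outside them lie 5 points: after FUBP1 depletion both events of CEACAM1 exon 7 above (0.210 and 0.502) and CD46 exon 13 below (-0.112), after U3 depletion CEACAM1 exon 7 below (-0.131), and after FBL depletion ITGA6 exon 25 above (0.217).

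CEACAM1 exon 7, the exon that gives the long tail, had a higher inclusion level in every siFUBP1 library than in any siCtrl2 library. Its level was 0.296, 0.368 and 0.328 in the siCtrl2 libraries and 0.506, 0.595 and 0.520 in the siFUBP1 libraries. The means were 0.331 ± 0.0358 and 0.540 ± 0.0477 (SD, n = 3 each), a change of 0.210 on 626 junction reads per library. With each library left out in turn the change ranged from 0.183 to 0.228. This was the event called by the quasi-binomial test, on the table that the genes were selected on. Limma on log2 odds of inclusion did not call it, with or without a variance trend. There the variance of 0.0659 between its own libraries was moderated toward that of other events. It became 1.47 or, with the trend, 1.19. The quasi-binomial test also moderated its dispersion over events.

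After U3 depletion the level of CEACAM1 exon 7 was lower than in the control. It was 0.413, 0.425 and 0.369 in the GFP ASO libraries and 0.276, 0.280 and 0.257 in the U3 ASO libraries. The 2 groups did not overlap, with means of 0.402 ± 0.0293 and 0.271 ± 0.0120 (SD, n = 3 each) and a change of -0.131, but the event was not called. In the input libraries the level was 0.465 and 0.359 in siCtrl and 0.234 and 0.452 in siFBL. These groups overlapped, and the change of -0.0692 became 0.0397 when the first siFBL library was left out. The opposite direction of the changes after FUBP1 and U3 depletion was not tested as a difference, since the experiments differ in agent, time and control.

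**Figure D2:**
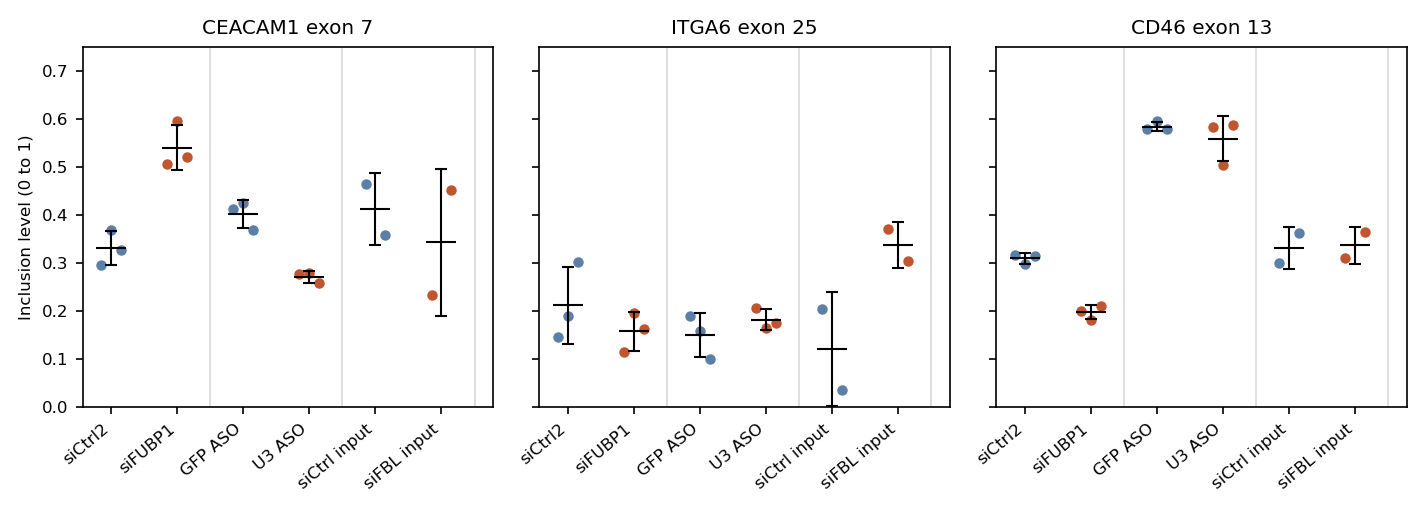
Inclusion level (0 to 1) of CEACAM1 exon 7, ITGA6 exon 25 and CD46 exon 13 in each library, blue for controls and red for depleted cells, with the mean (long bar) and SD (whiskers). CEACAM1 exon 7 was highest in siFUBP1 (mean 0.540) and lowest in U3 ASO (0.271), and CD46 exon 13 was at 0.584 in GFP ASO against 0.309 in siCtrl2.

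The reads of each form, scaled to 1e+06 junction reads of the library (RPM), show which form moved. In siFUBP1 the reads that include CEACAM1 exon 7 were 141, 141 and 118 RPM against 52.8, 78.4 and 60.1 in siCtrl2, 2.10-fold higher in the mean. Including reads lay above the control in every library at 9.12% of all events tested in that table. The reads that skip it were 102, 71.0 and 80.6 against 92.5, 99.5 and 91.0, and overlapped. Under U3 ASO it was the skipping reads that stood apart, at 23.5, 24.0 and 31.3 RPM against 9.42, 12.3 and 12.1 in GFP ASO, 2.34-fold higher. This order of the groups was found for the skipping reads of 6.96% of events, counted at any inclusion level. The including reads, 12.1, 12.7 and 14.7 against 8.98, 12.3 and 9.55, overlapped. The higher level in siFUBP1 thus went with more long-tail reads, and the lower level in U3 ASO with more short-tail reads.

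**Figure D3:**
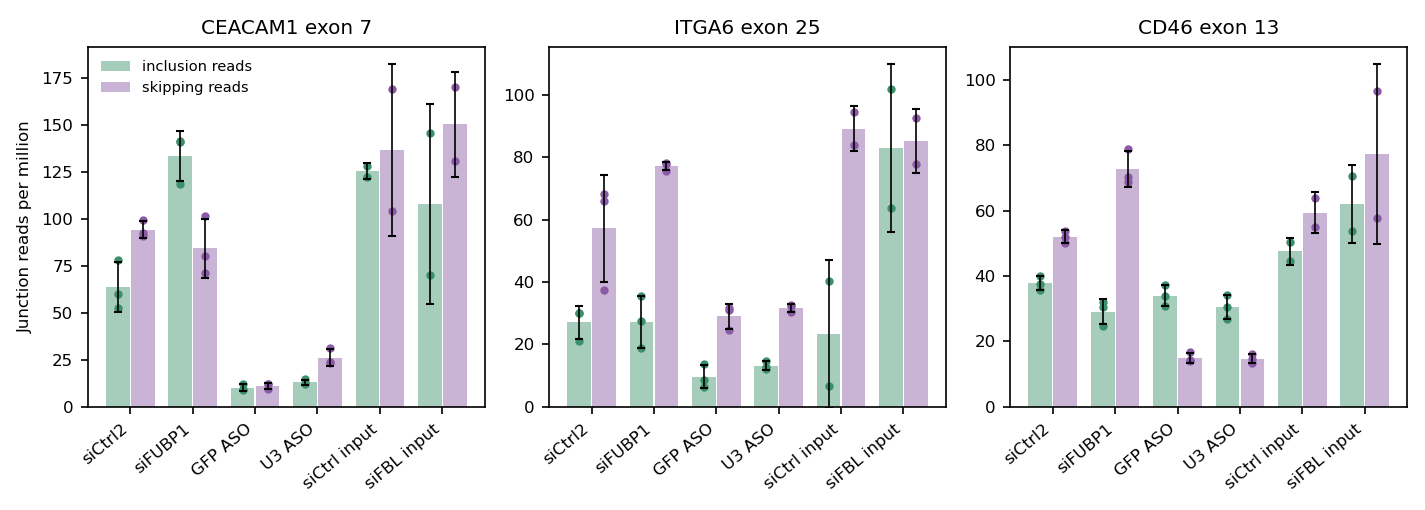
Junction reads per 1e+06 (RPM) that include (green) or skip (purple) each exon, bars for the group mean, points for libraries and whiskers for the SD. For CEACAM1 exon 7 the green bar rises from 63.8 in siCtrl2 to 134 in siFUBP1, and the purple bar from 11.2 in GFP ASO to 26.3 in U3 ASO.

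Reads over both forms at the CEACAM1 event with the most reads were also higher, 218 ± 22.5 RPM in siFUBP1 against 158 ± 17.4 in siCtrl2 (SD, n = 3 each), a ratio of 1.38. Under U3 ASO they were 39.4 ± 5.73 against 21.5 ± 3.06, a ratio of 1.83. Every depleted library lay above every control in both, which held for 10.4% of 6266 genes in the siFUBP1 table, with a median ratio of 0.964, and for 33.6% of 8456 genes in the U3 table, with a median ratio of 1.20. In the siFBL input the ratio was 0.987 with overlap. Reads over both forms, here and below, were not corrected for length. An including transcript gives more junction reads than a skipping one, so a change of inclusion level alone also moves these sums. More RNA per cell and more cells that express the gene cannot be told apart in bulk libraries. An exact permutation test over libraries cannot give a p below 0.1 for 3 against 3 libraries, and the bound is higher for 2 against 2.

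A second event joins exon 7 to a form of exon 8 with 27 bases (chr19:42510889-42510915), and it rested on few reads. Its level was 0.174, 0.476 and 0.330 in siCtrl2 and 0.487, 1.00 and 1.00 in siFUBP1, on 27.0 reads per library. The groups did not overlap, in the same direction as the main event. The level was 0.825 ± 0.304 for GFP ASO against 0.718 ± 0.157 for U3 ASO (SD, n = 3 each), with overlap. In the siFBL input it was 0.648 and 0.721 against 1.00 in both controls, on 15.8 reads per library. The 27-base form itself, as an exon joined to exon 6, had 21, 27 and 15 including reads in the siCtrl2 libraries and 9, 0 and 0 in the siFUBP1 libraries. Its 13 skipping reads were in the third siCtrl2 library. The second event counts the same junction from exon 6 as skipping, with 21, 26 and 15 reads in siCtrl2 and 7, 0 and 0 in siFUBP1. These counts are therefore not separate observations. The change of exon 7 after FUBP1 depletion was 0.218 with the reads of both events summed.

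CEACAM1 exon 5, at chr19:42518948-42519235, has 288 bases and codes for an immunoglobulin-like domain of the outer part. It was mostly included everywhere, with levels of 0.915 ± 0.0773 in siCtrl2, 0.893 ± 0.0848 in siFUBP1, 0.928 ± 0.0405 for GFP ASO and 0.917 ± 0.0725 for U3 ASO (SD, n = 3 each). In the input libraries it was 0.964 ± 0.0293 in siCtrl and 0.954 ± 0.0329 in siFBL (SD, n = 2 each). All 3 comparisons overlapped. The reads over both forms of this event were higher in siFUBP1 by 1.54-fold and in U3 ASO by 1.87-fold, against 1.38-fold and 1.83-fold at exon 7. A further exon of 93 bases at chr19:42515011-42515103, included in the annotated CEACAM1-204, had 13.3 reads per library, just above the minimum of 10, and was included in 5 reads of 1 U3 ASO library.

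ITGA6 exon 25, the exon of tail A, was the minor form in HepG2 cells. Its level was 0.146, 0.190 and 0.301 in siCtrl2 and 0.114, 0.195 and 0.162 in siFUBP1, which overlapped. It was 0.190, 0.159 and 0.101 in GFP ASO and 0.205, 0.165 and 0.176 in U3 ASO, which overlapped as well. In the input libraries it was 0.204 and 0.0359 in siCtrl and 0.371 and 0.304 in siFBL, so both depleted libraries lay above both controls. The means were 0.120 ± 0.119 and 0.337 ± 0.0470 (SD, n = 2 each), a change of 0.217 on 140 reads per library that was not called. It was 0.134 to 0.301 with 1 library left out.

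The reads that include ITGA6 exon 25 were 40.3 and 6.59 RPM in siCtrl and 102 and 63.8 in siFBL, above the control in both libraries as at 13.8% of events, while the skipping reads were 84.0 and 94.4 against 92.5 and 78.0 and overlapped. The second siCtrl library held 6 including reads. Over both forms the ratio was 1.49 in the siFBL input. It was not corrected for length, so the higher inclusion level in siFBL adds to it. How much of the ratio this makes up was not computed. Both depleted libraries were above both controls, as for 13.9% of 3098 genes, whose median ratio was 0.878. The authors' mean normalized count of ITGA6 was 20845 in the siCtrl RIP fit and 33777 in the siFBL fit, on scales that the fits do not share.

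The other tested ITGA6 exons were nearly constant. Exons 3 and 20 and an exon of 129 bases at chr2:172489485-172489613 had mean levels of 0.976 or more in the siFUBP1 and U3 groups that list them. An exon of 117 bases at chr2:172472774-172472890 had a level of 0.00429 in GFP ASO and 0.00204 in U3 ASO. Over the 5 genes, 6 tested events of the siFUBP1 table, 8 of the U3 table and 1 of the siFBL table had means above 0.95 in both groups, and none of these moved by more than 0.0238.

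CD46 exon 13, which selects the CYT-1 tail, had a lower level in every siFUBP1 library than in any siCtrl2 library. Its level was 0.316, 0.297 and 0.314 in siCtrl2 and 0.200, 0.182 and 0.211 in siFUBP1. The means were 0.309 ± 0.0105 and 0.197 ± 0.0147 (SD, n = 3 each), and the change of -0.112 on 316 reads per library was not called. The skipping reads, which mark CYT-2, were 78.9, 68.8 and 70.2 RPM against 50.1, 52.1 and 53.9 in siCtrl2, and the including reads 32.0, 24.8 and 30.4 against 37.6, 35.8 and 40.1. Skipping reads lay above the control in every library at 3.58% of all events of the table, and including reads below it at 11.3%. Those events are of any inclusion level, and include some with few or no skipping reads, which have little room to move. Without correction for length the change was -0.136.

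After U3 and FBL depletion CD46 exon 13 overlapped with its controls. The level was 0.579, 0.595 and 0.579 in GFP ASO and 0.584, 0.505 and 0.588 in U3 ASO. In the input it was 0.301 and 0.362 in siCtrl and 0.310 and 0.364 in siFBL. The control levels themselves differed between experiments by more than any depletion moved this exon, by 0.275 between siCtrl2 and GFP ASO. A difference of at least this size between these controls was found at 3.33% of 12232 events tested in both tables. Their levels did not overlap at 8.89% of these events, and at 2 of the 11 events of the 5 genes. The siRNA and ASO experiments differ in agent and in time after treatment, and these cannot be told apart.

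The CD46 stem exons kept a fixed order of use in every group, with exon 8 mostly included and exon 7 mostly skipped. Exon 8 had levels of 0.756 ± 0.0782 in siCtrl2 and 0.692 ± 0.0640 in siFUBP1, 0.812 ± 0.0592 for GFP ASO and 0.809 ± 0.0324 for U3 ASO (SD, n = 3 each), and 0.899 ± 0.143 in siCtrl and 0.724 ± 0.175 in siFBL (SD, n = 2 each). Exon 7 had levels of 0.0288 and 0.0209, 0.0392 and 0.0245, and 0.0778 and 0 in the same order. All of these comparisons overlapped. Reads over both forms of the exon 8 event were 1.35-fold those of the control in siFUBP1, 1.08-fold in U3 ASO and 1.66-fold in siFBL. At the exon 13 event, the CD46 event with the most reads, the ratios were 1.13, 0.924 and 1.30.

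The next stem exon, exon 9 (chr1:207770321-207770362, 42 bases), was included at 1.00 in both siCtrl input libraries and at 1.00 and 0.890 in siFBL when spliced straight from exon 6. CD46 exons 5 and 10 had mean levels of 0.987 or more. An event at exon 11 had 6.67 reads per library and was not tested.

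CD47 could not be followed at this depth. Its 4 events, at exons 8, 9 and 10, which code for the alternative tail, had 4.83 to 7.33 reads per library and were not tested. At exon 8 (chr3:108051939-108051970) the siCtrl2 libraries held 3, 16 and 2 including and 3, 3 and 0 skipping reads. The siFUBP1 libraries held no including and 6, 6 and 3 skipping reads. In the U3 table the same exon had 2, 15 and 6 including reads in GFP ASO and 1, 8 and 6 in U3 ASO, with skipping reads in 1 GFP ASO library.

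F11R had 2 events, both in the U3 table. Exon 5 (chr1:161000631-161000777, 147 bases) had a level of 1.00 for GFP ASO and 0.995 ± 0.00940 for U3 ASO (SD, n = 3 each), and an exon of 13 bases had 1.00 and 0.988. The reads over both forms at exon 5 were 44.4, 40.04 and 40.9 RPM in GFP ASO and 59.3, 72.5 and 59.1 in U3 ASO. All U3 ASO libraries lay above all GFP ASO libraries, as for 33.6% of 8456 genes of that table. The ratio was 1.52, where the median over genes was 1.20.

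FUBP1 binding of these transcripts was read from the authors' enrichment, the log2 of RIP over input from their fit of 2 RIP and 2 input libraries per condition, given here with its standard error. In siCtrl cells CD47 was the most enriched, at 3.41 (SE 0.492), followed by CD46 at 2.09 (SE 0.0466), F11R at 1.07 (SE 0.0598) and ITGA6 at 0.65 (SE 0.0529). CEACAM1 was below its input, at -0.48 (SE 0.0653). An enrichment above 0 was found for 52.3% of 11581 genes whose mean count reached 50 in both conditions. CEACAM1, with the called exon after FUBP1 depletion, had an enrichment above that of 41.2% of these genes, and CD46 above that of 82.8%.

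In siFBL cells all 5 enrichments were lower. CD47 was at 2.85 (SE 0.489), CD46 at 1.83 (SE 0.0445), F11R at 0.71 (SE 0.0496), ITGA6 at 0.52 (SE 0.0337) and CEACAM1 at -0.72 (SE 0.0643). The difference, siFBL minus siCtrl, was -0.36 for F11R (95% interval -0.51 to -0.21), -0.26 for CD46 (-0.38 to -0.13), -0.24 for CEACAM1 (-0.42 to -0.06) and -0.13 for ITGA6 (-0.25 to -0.002). For CD47, with a mean count of 136 in siCtrl, it was -0.55 with an interval from -1.91 to 0.80. A lower enrichment in siFBL was found for 50.1% of the 11581 genes, and the median difference over them was -0.00139. Of these genes, 17.8% had a lower difference than F11R, 25.4% than CD46 and 26.9% than CEACAM1. For ITGA6 the share was 37.3% and for CD47 8.82%. The intervals take the 2 fits as independent and rest on 2 libraries of each kind. The enrichment is over the whole transcript and says nothing of a single exon.

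**Figure D4:**
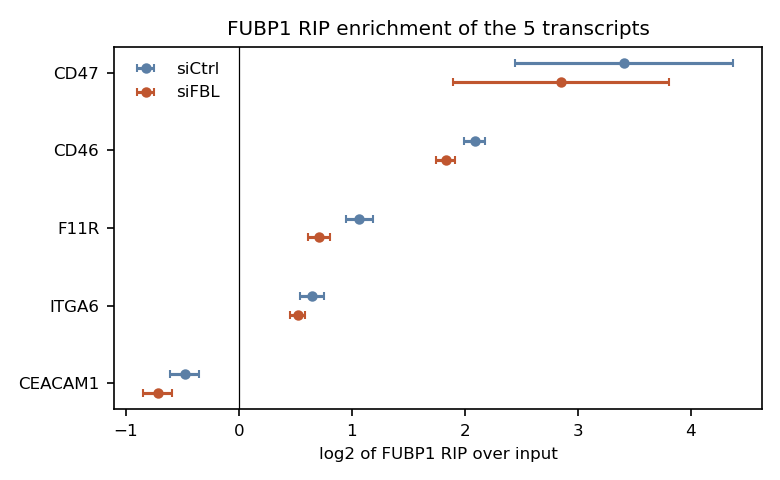
Enrichment of the 5 transcripts in FUBP1 RIP over input on the log2 scale in siCtrl (blue) and siFBL (red) cells, with 95% intervals from the authors' standard errors. Each red point lies left of its blue point, and only CEACAM1 lies below 0 (-0.48 and -0.72).

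Exons of other genes with the most similar pattern were taken as the 3 with the highest Pearson correlation of inclusion level over the 16 libraries of the 3 tables. For CEACAM1 exon 7 they were in CPNE1 (r = 0.841), ATXN2L (0.783) and ABCC2 (0.742), among 1604 events with at least 50 reads per library. The CPNE1 exon differed by 0.0933, -0.0277 and -0.0353 after FUBP1, U3 and FBL depletion, from control levels near 0.9. For ITGA6 exon 25 they were in ARHGEF12 (0.813), NCSTN (0.786) and EIF4G3 (0.780), among 1605 events. The EIF4G3 exon was also a minor form, at 0.145 in siCtrl input, and differed by 0.308 after FBL depletion. The libraries share tables and controls, so these values describe the patterns only.

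Beside the 5 receptors, 50 other genes of adhesion and their partners were counted as a list, among them integrins, laminins, claudins, cadherins, nectins, tetraspanins and the complement regulators CD55 and CD59. After FUBP1 depletion 22 of them had 76 tested events, after U3 depletion 28 had 135, and after FBL depletion 13 had 37. The quasi-binomial test called 0 of these in each table, against 0.154%, 0.183% and 0.0% of all events. An unadjusted p under 0.05 was found for 3, 3 and 0 of them. Over all events it was found for 532 of 16213, 880 of 30110 and 48 of 5218. Levels did not overlap at 2 of 75, 6 of 132 and 6 of 37 events with reads in every library, where the shares over all events were 5.16%, 6.18% and 14.4%. The median changes were -0.00159, -0.00233 and -0.00044, against -0.00139, -0.00355 and -0.00326 over all events.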

How the data were processed

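Adapters were trimmed with Cutadapt, reads were aligned to hg38 with HISAT2 and skipped exon events were counted by rMATS from junction reads, all by the authors; versions and the annotation release are not given in the sources used here. The deposited tables gave inclusion and skipping junction reads as lists of whole-number counts with 1 entry per library, and libraries are named by their place in the list. The 6 columns of inclusion levels were not used, nor were the p-values and FDR, which hold the authors' comparisons. For RIP, the authors gave log2 fold changes of RIP over input with standard errors from DESeq2 per condition, and a mean normalized count treated as a score without a shared scale. Reads per gene were counted with HTSeq according to the methods, while the submitters' processing notes name featureCounts.

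Inclusion levels were computed from the reads and the rMATS effective lengths. Events averaging 10 or more junction reads in a library were fitted per table by a quasi-binomial model with the dispersion moderated by limma 3.58.1 (squeezeVar) in R 4.3.3, because lists of reads of 2 forms are not a table that a count test of genes takes. P-values were adjusted over all events by the Benjamini-Hochberg procedure. An exon was described in full where a group's mean level lay between 0.05 and 0.95, by the event with the most reads among those that met this limit. Other steps used Python 3.11.15 and GENCODE release 44 on hg38. Coordinates count from 1. The members, the lists and the alternatives were chosen with earlier results of these data known.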

Additional observations from a re-analysis of the deposited data

How the results depend on the processing

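The form of the test changed the number of events called over a whole table. It also changed the 1 call that the quasi-binomial test made among the 5 genes. Inclusion changes are computed without the test, so its form cannot move them. Limma on the log2 odds called 8 events in the siFUBP1 table and 0 in the U3 table (1961 at an unadjusted p under 0.05), against 25 and 55 in the quasi-binomial test. With a variance trend, chosen after seeing the data, it called 116, 328 and, in the siFBL table, 3 where the quasi-binomial test called 0 (48 at an unadjusted p under 0.05). That form did not call CEACAM1 exon 7 in the siFUBP1 table and called the event that joins it to the 27-base exon. With 1 library left out the counts ranged from 12 to 25 in the siFUBP1 table, with 12 without the second siCtrl2 and 13 without the second siFUBP1 library. They ranged from 29 to 47 in the U3 table, with 31 without the second GFP ASO library and 35, 35 and 29 without U3 ASO library 1, 2 and 3, and were 0 throughout in the siFBL table. Of 161 recomputed inclusion changes of the described exons, 158 stayed on their side of the threshold or within the spread between libraries. Most of them were of events not called, which had no call to lose. The other 3 are CEACAM1 exon 7 in both limma forms, where the call was lost, and CD46 exon 13 without correction for length. The 21 changes that turned sign or reached 0 were of events that were not called, among them CEACAM1 exon 5, CD46 exon 8 and CD46 exon 13 after U3 depletion. No paired analysis was possible because the columns carry no replicate numbers, and a place in a list does not say which numbered library it is. Depth limits the siFBL input and CD47 most.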
